A study of Mus musculus with 8 samples.

Results

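The genes described here are 10 flow-responsive and vasoactive genes of the vessel wall, namely Klf2, Klf4, Nos3, Edn1, Ednra, Ece1, Ace, Agtr1a, Adm and Ramp2. They are taken by name, with no threshold on a measured value, and all 10 were found among the 24584 genes of the deposited tables. These genes and the lists used below were, however, chosen with earlier results of these data known. Shares over all genes are therefore set beside their counts as a scale and not as a test. RNA-seq was performed on lung tissue of 8 male ICR mice, an outbred stock, aged 6 to 8 weeks. The LPS group (n = 4) was given lipopolysaccharide of Escherichia coli intraperitoneally at 5 mg/kg to induce septic lung injury. The LPS + Tan group (n = 4) was given the same dose of LPS and, 30 min earlier, an intraperitoneal injection of 50 mg/kg tangeretin, a flavonoid of citrus peel. Lungs were taken 12 h after LPS. All 8 mice were thus exposed to LPS, and no group without LPS or with tangeretin alone was analysed here, so that the comparison bears on the difference that tangeretin made in LPS-exposed lung and not on the response to LPS. Whether the LPS group received the vehicle of tangeretin is not stated in the sources used here.

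The genes belong to the systems by which endothelium senses blood flow and sets vessel tone. Laminar flow over endothelial cells activates a kinase cascade that ends in ERK5 (encoded by Mapk7) and MEF2 factors, which induce the transcription factors KLF2 and KLF4, and both of these favour an anti-inflammatory, anti-thrombotic state that includes transcription of Nos3 (endothelial nitric oxide synthase) and Thbd (thrombomodulin). Nitric oxide relaxes smooth muscle through soluble guanylate cyclase and cGMP, whereas endothelin 1 (Edn1) and angiotensin II constrict vessels through receptors such as Ednra and Agtr1a. Angiotensin-converting enzyme (Ace) is abundant on the capillary endothelium of the lung, which makes the lung a major site of angiotensin II formation, and adrenomedullin (Adm) acts through the receptor Calcrl with its partner Ramp2 to protect the endothelial barrier.

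The promoter sequences of Klf2, Klf4 and Edn1 are shown because Klf2 and Klf4 are the transcription factors of the set, and because Klf4 and Edn1 were the genes that passed the unadjusted threshold below. The sequences are from RefSeq for GRCm38.p6 and run 5′ to 3′ on the strand of the gene, from 250 to 31 bases before the start that RefSeq gives. The Klf2 window lies at chr8:72318812-72319031 on the plus strand, Klf4 at chr4:55532506-55532725 on the minus strand and Edn1 at chr13:42301226-42301445 on the plus strand. Capitals mark matches to the MEF2 core (CTA, any 4 bases and TAG) or to CACCC, the core of the sites that KLF factors bind, with both strands searched.
Klf2: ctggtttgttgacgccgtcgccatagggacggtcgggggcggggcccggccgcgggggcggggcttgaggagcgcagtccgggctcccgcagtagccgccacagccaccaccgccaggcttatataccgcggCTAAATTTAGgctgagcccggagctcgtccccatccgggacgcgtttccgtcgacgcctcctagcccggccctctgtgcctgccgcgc
Klf4: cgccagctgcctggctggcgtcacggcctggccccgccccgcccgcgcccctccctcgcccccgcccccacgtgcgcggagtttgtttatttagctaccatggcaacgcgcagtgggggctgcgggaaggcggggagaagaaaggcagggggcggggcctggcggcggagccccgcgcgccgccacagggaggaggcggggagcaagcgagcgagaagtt
Edn1: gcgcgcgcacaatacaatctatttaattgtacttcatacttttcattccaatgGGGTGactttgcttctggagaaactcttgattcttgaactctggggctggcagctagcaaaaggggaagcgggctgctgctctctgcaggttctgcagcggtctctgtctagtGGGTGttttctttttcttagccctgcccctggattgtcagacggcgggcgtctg
The Klf2 window held 1 match to the MEF2 core, starting at base 133 from its 5′ end, and no CACCC. The Edn1 window held CACCC on the opposite strand at bases 54 and 167, and the Klf4 window held neither motif. Of 32851 windows of 220 bases before mouse gene starts, 2.83% held the MEF2 core and 47.8% held CACCC, so that a CACCC match is common. The windows were also searched for TATAAA, the TATA box, present in 9.95% of all windows, and for ACGTG, the core of hypoxia-response elements, present in 14.4%. Neither occurred in the Klf2 and Edn1 windows, and the Klf4 window held ACGTG on both strands, at the overlapping bases 69 and 70, printed here in lower case. The windows stop 31 bases before the start. TATAAA nearer the start was therefore not searched, and its absence from the promoters cannot be read from these windows. RefSeq promoters were matched for 7 of the 10 genes, and not for Nos3, Agtr1a and Ramp2. These matches describe the letters of the windows only.

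Library totals were even, at 38895654 to 39931970 counts in LPS and 39039693 to 39629332 in LPS + Tan. Within each group, no library was a repeat of another. Over the 15706 genes tested with edgeR's quasi-likelihood test, 804 (5.12%) had an unadjusted p below 0.05, 451 (2.87%) of them higher and 353 (2.25%) lower in LPS + Tan. No gene (0.0%) passed at an adjusted p below 0.05 by the Benjamini-Hochberg method, nor with limma-voom, whereas DESeq2 gave 34 and the likelihood ratio test of edgeR 23. The division into higher and lower depends on scaling: with total counts in place of TMM (trimmed mean of M values) it was 653 higher and 239 lower, and with scaling to endothelial marker genes it was 194 higher and 770 lower. The thresholds that the study used for differential genes, an unadjusted p below 0.05 with an absolute log2 fold change above 1, were passed by 102 genes (0.649%).

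Among the 10 genes, Klf4 and Edn1 were higher in LPS + Tan at an unadjusted p below 0.05, none was lower, and 8 did not pass. This is 2 of 10, against 5.12% of all genes tested, and neither held after adjustment, where the 10 adjusted p-values lay at 0.924 or above. None of the 10 reached the study's thresholds. By sign, 5 were higher and 5 lower, with a median log2 fold change of 0.01, the same as the median of 0.01 over all genes tested. In none of the 10 did the values of the groups separate without overlap, as they did in 2.73% of all genes. All 10 passed the filter on low counts, with at least 556 reads in every library. Levels are given below as CPM (counts scaled to a common library total after TMM) in the order of replicates 1 to 4, and fold changes are LPS + Tan over LPS from edgeR with p-values adjusted over all genes. Because whole lung was sequenced, fewer cells of a type and less RNA per cell cannot be told apart. The p-values measure the spread between these mice.

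**Figure D1:**
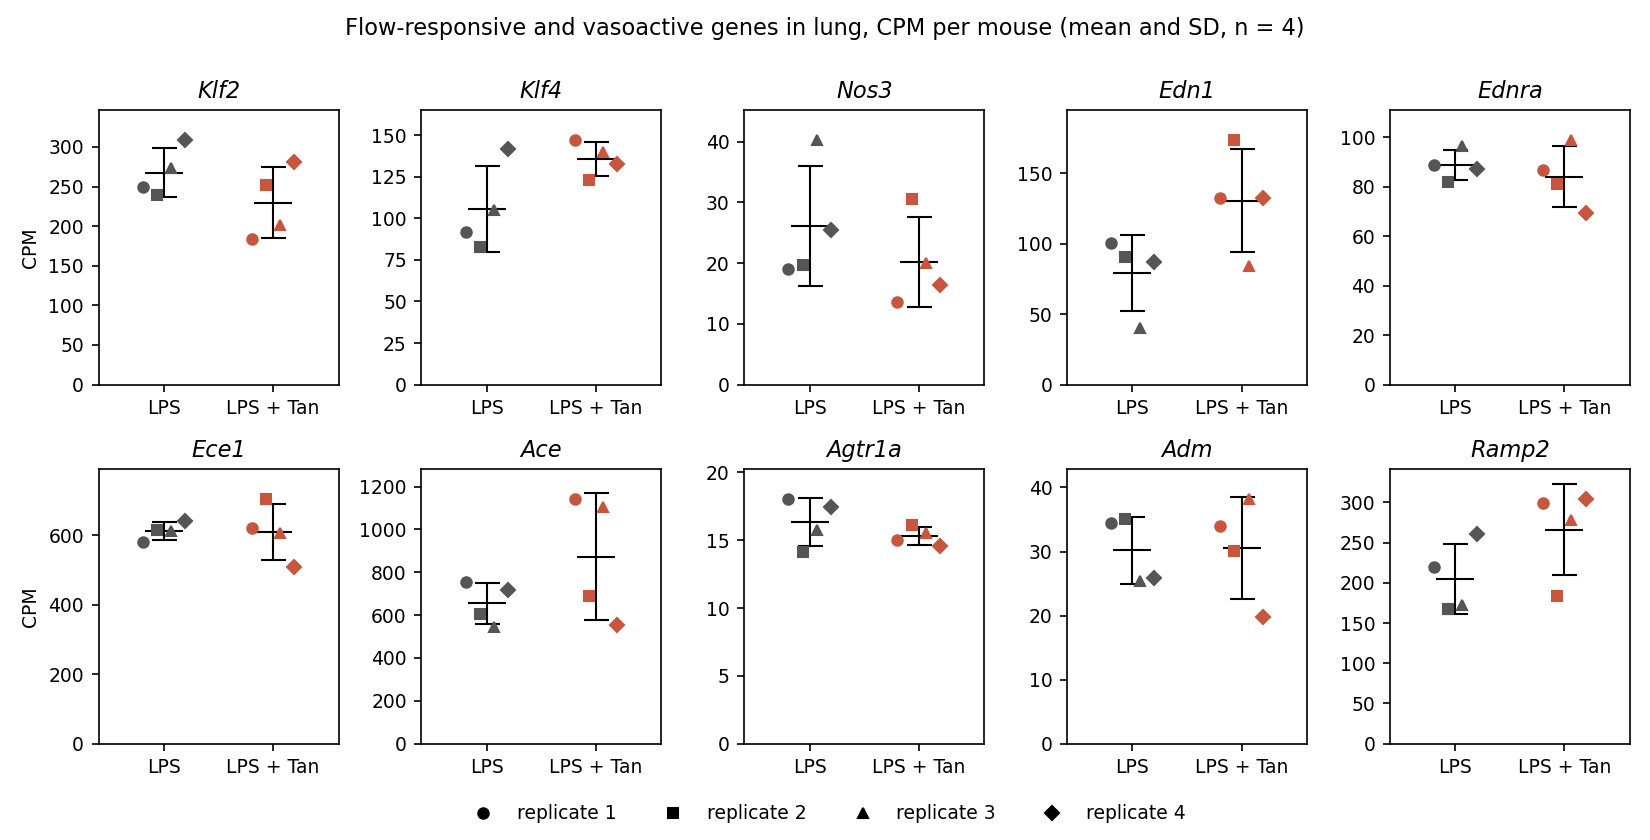
CPM of each of the 10 genes on a linear axis from 0, with 1 point per mouse, the replicate number as the symbol, and the mean and SD of each group (n = 4) as lines. The groups overlap in all 10 panels, with 3 of 4 LPS + Tan mice above every LPS mouse for Edn1.

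Klf2 (chromosome 8, 72319033 to 72321656, plus strand, GRCm38, a protein-coding gene) encodes the flow-induced transcription factor of endothelium, which is also present in resting lymphocytes and monocytes. Its level was 249, 239.6, 273 and 309 CPM in LPS, and 184, 252, 202 and 281 CPM in LPS + Tan. LPS + Tan replicates 1 and 3 held the lowest values of the 8, while replicates 2 and 4 lay within the LPS range. The mean was 268 ± 31.1 CPM in LPS and 229.7 ± 44.9 CPM in LPS + Tan (SD, n = 4), a log2 fold change of -0.22 ± 0.14 (SE, 95% interval -0.54 to 0.10, edgeR adjusted p = 0.930). Without LPS + Tan replicate 4 the value was -0.33, and with scaling to endothelial markers it was -0.30, and both values passed the unadjusted threshold, whereas it was -0.13 without LPS + Tan replicate 1 and -0.14 without LPS replicate 4.

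Klf4 (chromosome 4, 55527143 to 55532466, minus strand, GRCm38, protein-coding) encodes the related factor that is shared by flow-exposed endothelium, epithelium and monocytes. It was measured at 91.9, 83.0, 105 and 142 CPM in LPS, and at 147, 123, 140.0 and 133 CPM in LPS + Tan. The LPS + Tan mice lay close together, with a coefficient of variation of 7.55% against 24.5% in LPS, and LPS replicate 4 sat among them. The means of 105 ± 25.9 and 136 ± 10.3 CPM (SD, n = 4) gave a log2 fold change of 0.36 ± 0.15 (SE), or 1.29-fold (95% interval 1.02 to 1.63, edgeR adjusted p = 0.924). The unadjusted call depended on single mice: it was lost without LPS replicate 1 (0.30), 2 (0.26) or 3 (0.36) and without LPS + Tan replicate 1 (0.32), 3 (0.35) or 4 (0.38), given as log2 fold changes.

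The ratio of these related factors within each mouse was also compared. It rests on the same values as their fold changes and is not independent of them. On the FPKM scale (fragments scaled to gene length and library total), the log2 ratio of Klf4 to Klf2 was -3.49, -3.59, -3.43 and -3.18 in LPS, and -2.37, -3.09, -2.58 and -3.14 in LPS + Tan. All LPS + Tan mice lay above all LPS mice, although LPS + Tan replicate 4 exceeded LPS replicate 4 by little. The ratio itself was 0.0833 to 0.110 in LPS and 0.113 to 0.193 in LPS + Tan. The mean log2 ratio rose from -3.42 ± 0.17 to -2.80 ± 0.38 (SD, n = 4), a difference of 0.63, or 1.54-fold, in an exact two-sided permutation test (p = 0.0286, the smallest that 70 arrangements can give). Of 3 ratios that were tested, this p became 0.0857 after Benjamini-Hochberg adjustment over the 3. With any mouse left out the difference was 0.49 to 0.74 with an exact permutation p of 0.0571, which is the smallest that 4 against 3 allows.

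The list of inputs and targets of KLF2 and KLF4 held 17 genes, of which 16 were tested, 2 were higher and none was lower at an unadjusted p below 0.05, against 2.87% and 2.25% of all genes, with a median log2 fold change of 0.01 against 0.01 over all genes. The sensors and kinases upstream did not pass. Mapk7 had levels of 22.6 to 24.9 CPM in LPS and 21.9 to 25.8 CPM in LPS + Tan, and a log2 fold change of -0.04 (95% interval -0.23 to 0.15). The genes that passed were Thbd and Tek. Thbd, the endothelial thrombin receptor that activates protein C, stood at 302, 250.1, 247 and 361 CPM in LPS and at 486, 282, 467 and 336 CPM in LPS + Tan. Replicates 1 and 3 of LPS + Tan lay above all LPS mice, and replicates 2 and 4 within their range. The difference was 1.35-fold (95% interval 1.01 to 1.82, edgeR adjusted p = 0.924), and it no longer passed without LPS replicate 1 (log2 fold change 0.46), 2 (0.37) or 3 (0.37), without LPS + Tan replicate 1 (0.31) or 3 (0.34), or with endothelial scaling (0.37), limma-voom (0.42) or log2 FPKM (0.45 and 0.46).

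Tek, the angiopoietin receptor, was measured at 249, 226, 246 and 364 CPM in LPS and at 472, 234, 445 and 398 CPM in LPS + Tan. LPS replicate 4 was well above the other LPS mice, and LPS + Tan replicate 2 lay among the low LPS values. The change was 1.43-fold (95% interval 1.01 to 2.01, edgeR adjusted p = 0.924). It was lost without LPS replicate 1 (0.47), 2 (0.43) or 3 (0.47) and without LPS + Tan replicate 1 (0.40), 3 (0.44) or 4 (0.50), given as log2 fold changes, and with limma-voom (0.49) or log2 FPKM (0.52 and 0.53).

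**Figure D2:**
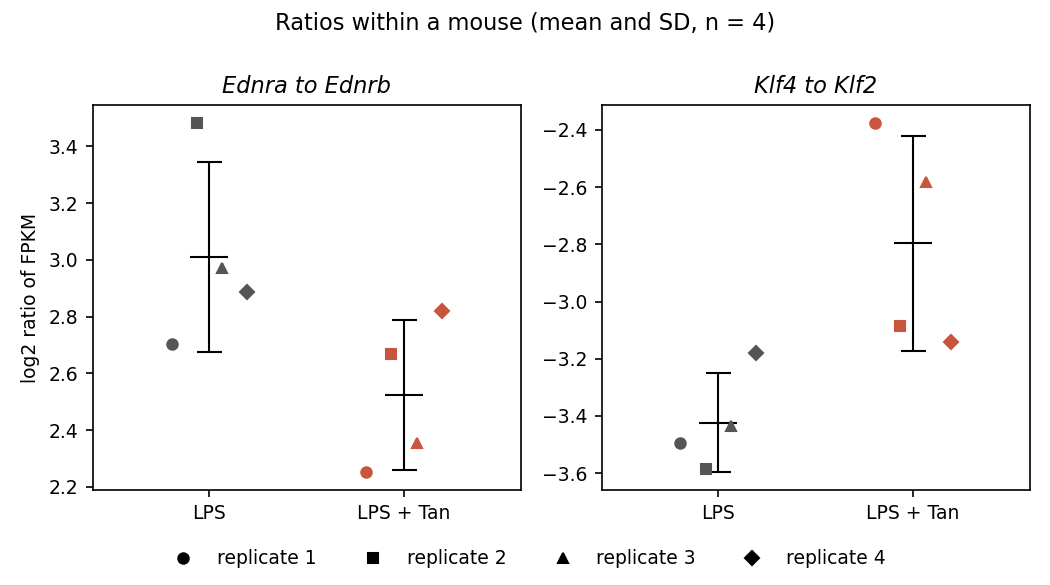
Log2 ratio of FPKM values within each mouse for Ednra to Ednrb and Klf4 to Klf2, with 1 point per mouse and the mean and SD of each group (n = 4). The axes do not start at 0. For Klf4 to Klf2 all 4 LPS + Tan mice are above all 4 LPS mice, and for Ednra to Ednrb the groups overlap.

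Nos3 (chromosome 5, 24364810 to 24384474, plus strand, GRCm38, protein-coding) encodes endothelial nitric oxide synthase. Its level was 19.1, 19.7, 40.3 and 25.5 CPM in LPS, and 13.7, 30.6, 20.1 and 16.4 CPM in LPS + Tan. LPS replicate 3 and LPS + Tan replicate 2 were the highest of their groups, and the groups overlapped over most of their range. The means were 26.2 ± 9.89 and 20.2 ± 7.41 CPM (SD, n = 4), and the log2 fold change of -0.37 ± 0.29 (SE, 95% interval -1.02 to 0.27) did not pass (edgeR adjusted p = 0.940). Without LPS + Tan replicate 2 it was -0.64 and passed the unadjusted threshold, whereas without LPS replicate 3 it was -0.09 and without LPS + Tan replicate 1 it was -0.23. Nos3 overlaps the protein-coding gene Atg9b on the opposite strand, which was counted at 5 to 25 reads per library, whereas Nos3 held 556 to 1544 reads.

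Of the other genes of the nitric oxide and cGMP pathway, 12 of 13 were tested, 1 was higher, 1 was lower and 10 did not pass, against 2.87% higher and 2.25% lower over all genes, with a median log2 fold change of 0.10. The lower gene was Nos2, the inducible nitric oxide synthase of activated macrophages and neutrophils. Nos2 stood at 74.9, 111, 109 and 81.1 CPM in LPS and at 36.6, 71.0, 41.4 and 82.6 CPM in LPS + Tan. Replicates 1 and 3 of LPS + Tan held the lowest values by a wide margin, and LPS + Tan replicate 4 lay within the LPS range. The change was 0.616-fold (95% interval 0.415 to 0.914, edgeR adjusted p = 0.924), and it no longer passed without LPS replicate 2 (log2 fold change -0.61), LPS replicate 3 (-0.62) or LPS + Tan replicate 3 (-0.57).

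Ddah2, a member of the dimethylarginine dimethylaminohydrolase family, was the higher gene of the pathway. It was measured at 25.9, 21.6, 22.4 and 27.0 CPM in LPS and at 39.4, 27.1, 33.0 and 39.9 CPM in LPS + Tan. The groups did not overlap, though LPS replicate 4 and LPS + Tan replicate 2 were almost equal. The change was 1.44-fold (95% interval 1.17 to 1.77, edgeR adjusted p = 0.850) and it passed the unadjusted threshold under each of 21 alternatives. Cav1, the caveolar protein that holds the synthase inactive, was 507 ± 112 CPM in LPS and 659 ± 134 CPM in LPS + Tan (SD, n = 4), with a log2 fold change of 0.38 (95% interval -0.05 to 0.81). It passed without LPS replicate 1 (0.48) or without LPS + Tan replicate 2 (0.52), and was 0.24 without LPS replicate 3. The guanylate cyclase subunits Gucy1a1 and Gucy1b1 had log2 fold changes of 0.11 (95% interval -0.14 to 0.35) and 0.08 (95% interval -0.15 to 0.31).

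Edn1 (chromosome 13, 42301476 to 42307990, plus strand, GRCm38, protein-coding) encodes the precursor of endothelin 1, the vasoconstrictor peptide of endothelium, and had the largest fold change of the 10 genes. Its level was 100.4, 90.6, 39.9 and 86.8 CPM in LPS, and 132, 174, 83.8 and 132 CPM in LPS + Tan. LPS replicate 3 was the lowest of all mice, and LPS + Tan replicate 3 was the sole mouse of its group within the LPS range. The means of 79.4 ± 27.0 and 130.5 ± 36.7 CPM (SD, n = 4) gave a log2 fold change of 0.72 ± 0.28 (SE), or 1.64-fold (95% interval 1.06 to 2.54, edgeR adjusted p = 0.924). The unadjusted call was lost without LPS + Tan replicate 1 (0.71), 2 (0.55) or 4 (0.71), given as log2 fold changes. Without the low LPS replicate 3 the value fell to 0.50 and still passed.

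Ece1 (chromosome 4, 137862237 to 137965229, plus strand, GRCm38, protein-coding) encodes the protease that cuts big endothelin 1 to the active peptide. It was measured at 579, 614, 611 and 641 CPM in LPS and at 621, 704, 607 and 507 CPM in LPS + Tan. LPS + Tan replicates 2 and 4 lay above and below all LPS mice. Ece1 had a log2 fold change of 0.00 ± 0.11 (SE, 95% interval -0.25 to 0.24, edgeR adjusted p = 0.998). Ednra (chromosome 8, 77663031 to 77724464, minus strand, GRCm38, protein-coding), the endothelin receptor of vascular smooth muscle, gave 88.7, 82.0, 96.6 and 87.3 CPM in LPS and 86.7, 81.2, 99.0 and 69.3 CPM in LPS + Tan. LPS + Tan replicate 3 lay above all LPS mice, replicate 4 well below them and replicate 2 just below them. For Ednra it was -0.08 ± 0.11 (SE, 95% interval -0.32 to 0.17, edgeR adjusted p = 0.978), and without LPS + Tan replicate 4 it was 0.005.

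Of the 5 other genes of the endothelin system, 4 were in the tables and 3 were tested, 1 of which was higher and none lower, against 2.87% and 2.25% of all genes, with a median log2 fold change of 0.42. Edn2 held at most 1 read in a library. Edn3, a second endothelin peptide, was low at 3.96, 3.32, 1.65 and 3.84 CPM in LPS and at 5.56, 2.64, 7.12 and 6.50 CPM in LPS + Tan. LPS + Tan replicate 2 lay among the LPS mice and the other three above them. The change was 1.71-fold (95% interval 1.01 to 2.89, edgeR adjusted p = 0.924). It failed the threshold without LPS replicate 2 (log2 fold change 0.79) or 3 (0.56) and without LPS + Tan replicate 1 (0.76), 3 (0.62) or 4 (0.68). The same held with limma-voom (0.76), endothelial scaling (0.69), the log2 FPKM scale (0.45 and 0.74) and the replicate number as a block (0.74).

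Ednrb, the endothelin receptor of endothelium, stood at 21.3, 11.4, 19.3 and 18.5 CPM in LPS and at 28.4, 19.96, 30.3 and 15.4 CPM in LPS + Tan. LPS + Tan replicates 2 and 4 lay within the LPS range, and replicates 1 and 3 above it. Its log2 fold change was 0.42 (95% interval -0.12 to 0.95), 0.57 without LPS + Tan replicate 4, where it passed the unadjusted threshold, 0.25 without LPS replicate 2 and 0.27 without LPS + Tan replicate 3. The log2 ratio of Ednra to Ednrb within a mouse was 3.01 ± 0.33 in LPS and 2.52 ± 0.26 in LPS + Tan (SD, n = 4), which corresponds to 8.06 and 5.75 Ednra per Ednrb on the FPKM scale. The ratio ran from 6.51 to 11.2 in LPS and from 4.76 to 7.05 in LPS + Tan, so that the groups overlapped, and the difference of -0.49 did not pass an exact two-sided permutation test (p = 0.0571, 0.0857 adjusted over 3 ratios).

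Ace (chromosome 11, 105967945 to 105989964, plus strand, GRCm38, protein-coding) encodes angiotensin-converting enzyme, which forms angiotensin II and degrades bradykinin. Its level was 752, 606, 545 and 715 CPM in LPS, and 1143, 689, 1106 and 556 CPM in LPS + Tan. LPS + Tan replicates 1 and 3 stood far above every other mouse, and replicates 2 and 4 lay within the LPS range. The means were 655 ± 95.8 and 873 ± 295 CPM (SD, n = 4), with a coefficient of variation of 14.6% in LPS and 33.8% in LPS + Tan. The log2 fold change of 0.42 ± 0.23 (SE, 95% interval -0.09 to 0.92) did not pass (edgeR adjusted p = 0.924), and it was 0.58 and passed the unadjusted threshold without LPS + Tan replicate 4. Without LPS + Tan replicate 1 or 3, the mice with the high values, it was 0.26 or 0.28.

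Agtr1a (chromosome 13, 30336441 to 30382867, plus strand, GRCm38, protein-coding) encodes the angiotensin II receptor that raises vascular tone. It was measured at 18.1, 14.2, 15.7 and 17.4 CPM in LPS and at 15.0, 16.1, 15.5 and 14.6 CPM in LPS + Tan. All LPS + Tan mice lay within the LPS range. The log2 fold change of -0.09 ± 0.10 (SE) had a 95% interval of -0.32 to 0.13 (edgeR adjusted p = 0.966). Its near-identical copy Agtr1b held at most 5 reads in a library, and how reads shared by the copies were assigned is not given in the sources used here.

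Of the other genes of the renin and angiotensin system, 12 of 13 were in the tables and 9 were tested, and none passed in either direction, against 5.12% of all genes, with a median log2 fold change of -0.06. Agt, the precursor of the angiotensins, stood at 0.993 to 3.60 CPM in LPS and at 1.23 to 2.86 CPM in LPS + Tan. Renin (Ren1) held at most 3 reads.

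Adm (chromosome 7, 110627661 to 110629820, plus strand, GRCm38, protein-coding) encodes adrenomedullin, a vasodilator peptide. It was measured at 34.4, 35.03, 25.3 and 25.9 CPM in LPS and at 34.0, 30.1, 38.2 and 19.8 CPM in LPS + Tan. The highest and the lowest values of all 8 mice were both in LPS + Tan. Adm had a log2 fold change of 0.02 ± 0.19 (SE, 95% interval -0.41 to 0.45, edgeR adjusted p = 0.998). The sign of this value turned to -0.01 with limma-voom and to -0.07 with scaling to endothelial markers.

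Ramp2 (chromosome 11, 101246028 to 101259546, plus strand, GRCm38, protein-coding) encodes the partner that makes Calcrl an adrenomedullin receptor. Its level was 219, 167, 173 and 260.2 CPM in LPS, and 299, 183, 279 and 305 CPM in LPS + Tan. Of the LPS + Tan mice, replicates 1, 3 and 4 lay above all LPS mice and replicate 2 among them. The means of 205 ± 43.6 and 266 ± 56.4 CPM (SD, n = 4) gave a log2 fold change of 0.38 ± 0.19 (SE, 95% interval -0.04 to 0.79, edgeR adjusted p = 0.924). It passed the unadjusted threshold without LPS replicate 4 (0.51), without LPS + Tan replicate 2 (0.52) and with no filter on counts (0.37). Ramp2 overlaps Vps25 on the same strand, which held 2058 to 2414 reads per library against 6598 to 12148 for Ramp2, and how reads in the overlap were assigned is not given in the sources used here.

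Of the 9 other genes of the adrenomedullin and calcitonin gene-related peptide system, 8 were tested and none passed, against 5.12% of all genes, with a median log2 fold change of -0.03. Calcrl, the receptor, stood at 889, 513, 553 and 748 CPM in LPS and at 1327, 397, 1078 and 936 CPM in LPS + Tan. As for Ramp2, replicates 1, 3 and 4 of LPS + Tan were above all LPS mice, and replicate 2 was the lowest of all 8. Calcrl had a log2 fold change of 0.47 (95% interval -0.25 to 1.18), of 0.72 without LPS + Tan replicate 2, where it passed the unadjusted threshold, and of 0.25 without LPS + Tan replicate 1. The alternative partner Ramp3, which gives a second adrenomedullin receptor, stood at 12.1, 7.50, 40.6 and 12.3 CPM in LPS and 6.18, 29.3, 7.95 and 13.2 CPM in LPS + Tan. LPS replicate 3 and LPS + Tan replicate 2 held the high values, as they did for Nos3. The log2 fold change of Ramp3 was -0.36 (95% interval -1.66 to 0.94), and it turned to 0.41 without LPS replicate 3 and went to -0.996 without LPS + Tan replicate 2. Ramp1, the partner for calcitonin gene-related peptide, was 3.59 ± 0.581 CPM in LPS and 3.23 ± 0.723 CPM in LPS + Tan (SD, n = 4), with a log2 fold change of -0.15 (95% interval -0.60 to 0.30), or -0.32 to -0.07 with 1 mouse left out.

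**Figure D3:**
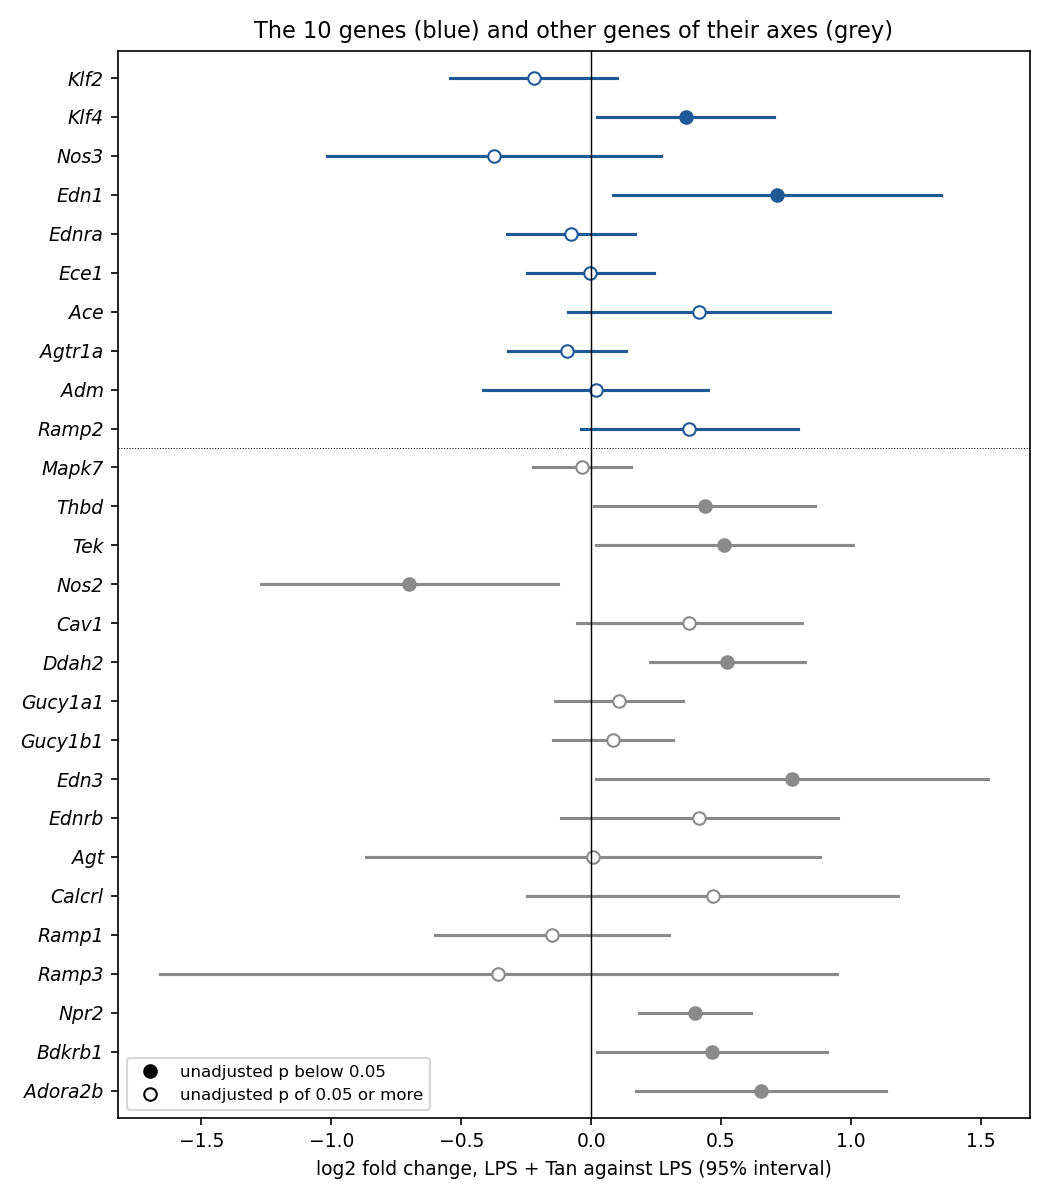
Log2 fold change of LPS + Tan against LPS with its 95% interval from edgeR, for the 10 genes in blue and for other genes of their pathways in grey. Filled points have an unadjusted p below 0.05 and no point passes after adjustment. Edn1, at 0.72, is farthest from 0 of the 10 genes.

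Other vasoactive systems (prostacyclin, thromboxane, natriuretic peptides, apelin, bradykinin, vasoactive intestinal peptide and adenosine) were covered by 19 genes, of which 16 were tested, 3 were higher and none was lower, against 2.87% and 2.25% of all genes, with a median log2 fold change of 0.26 against 0.01 over all genes. Npr2, the receptor for C-type natriuretic peptide, was measured at 29.7, 24.7, 24.9 and 22.7 CPM in LPS and at 33.2, 35.9, 31.4 and 34.2 CPM in LPS + Tan. The groups did not overlap. The change was 1.32-fold (95% interval 1.14 to 1.53, edgeR adjusted p = 0.850).

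Adora2b, the adenosine receptor linked to protection of the endothelial barrier, stood at 6.65, 6.97, 5.88 and 4.80 CPM in LPS and at 9.13, 13.9, 7.92 and 7.23 CPM in LPS + Tan. Here too the groups did not overlap, and LPS + Tan replicate 2 was the highest. The change was 1.57-fold (95% interval 1.13 to 2.20, edgeR adjusted p = 0.924). Npr2 and Adora2b passed the unadjusted threshold under each of 21 alternatives, although the log2 fold change of Adora2b went from 0.65 to 0.41 without LPS + Tan replicate 2. Bdkrb1, the bradykinin receptor induced by inflammation, was 2.43 ± 0.285 CPM in LPS and 3.35 ± 0.704 CPM in LPS + Tan (SD, n = 4, 1.38-fold, edgeR adjusted p = 0.924). It was lost without LPS replicate 1 (log2 fold change 0.46), 2 (0.47) or 4 (0.40) and without LPS + Tan replicate 2 (0.46), 3 (0.33) or 4 (0.48). The same held with limma-voom (0.45), endothelial scaling (0.38) and the replicate number as a block (0.45).

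Over the 6 pathway lists, 7 of 64 tested genes were higher and 1 was lower at an unadjusted p below 0.05, against 2.87% and 2.25% of all genes, and 3 (Ddah2, Npr2 and Adora2b) had groups that did not overlap, against 2.73%. The median log2 fold change of the 64 was 0.05. With scaling to endothelial markers the count became 4 higher and 3 lower, where all genes gave 1.24% higher and 4.90% lower. Leaving out mice moved the higher count to 4 without LPS + Tan replicate 1, 12 without replicate 2, 3 without replicate 3, 3 without LPS replicate 2 and 4 without LPS replicate 3. The lower count was 0 without LPS replicate 2 or LPS + Tan replicate 3, and 2 without LPS replicate 1 or LPS + Tan replicate 1, 2 or 4. The share of all genes called moved with the mouse left out as well. It was 1.69% higher and 1.33% lower without LPS + Tan replicate 1, 5.15% and 5.06% without replicate 2, 1.84% and 1.88% without replicate 3 and 4.78% and 4.56% without replicate 4. Without LPS replicates 1, 2, 3 and 4 it was 3.10%, 2.22%, 1.98% and 2.91% higher, and without replicates 1, 2 and 3 it was 2.54%, 1.91% and 1.71% lower.

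Markers of the cell types that lung tissue holds were read beside these genes. Lung epithelial markers were abundant in all mice, at a summed level of 20564 to 29056 CPM in LPS and 19111 to 29823 CPM in LPS + Tan, which fits the label of lung. The 10 endothelial markers summed to 3806 to 4491 CPM in LPS and 4292 to 4458 CPM in LPS + Tan, none was at 0 in any mouse, and 1 of 10 passed as higher, against 2.87% of all genes. That gene was Kdr, the receptor for vascular endothelial growth factor, at 259 ± 37.4 CPM in LPS and 334 ± 65.3 CPM in LPS + Tan (SD, n = 4, 1.29-fold, edgeR adjusted p = 0.924). The junction proteins Pecam1 and Cdh5 had log2 fold changes of 0.19 (95% interval -0.11 to 0.49) and -0.15 (95% interval -0.47 to 0.17). Pecam1 passed without LPS + Tan replicate 2 (0.28) and was 0.09 without LPS + Tan replicate 1, and Cdh5 was -0.25 to -0.05 with 1 mouse left out. Kdr no longer passed without LPS replicate 1 (0.39), 2 (0.30) or 3 (0.33), without LPS + Tan replicate 1 (0.24) or 2 (0.35), or with the replicate number as a block (0.36). It was also lost with endothelial scaling (0.29), but Kdr is itself 1 of the markers that set this scaling.

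Of 6 pericyte markers 1 passed, Higd1b, at 7.16, 5.24, 2.51 and 5.78 CPM in LPS and 11.7, 5.11, 12.8 and 8.68 CPM in LPS + Tan (1.85-fold, edgeR adjusted p = 0.924). LPS + Tan replicate 2 lay among the LPS mice. Without LPS + Tan replicate 1 (0.77) or 3 (0.71) it did not pass. The summed pericyte markers were 199 to 244 CPM in LPS and 183 to 263 CPM in LPS + Tan. None of the smooth muscle, fibroblast, lung epithelial, neutrophil, monocyte and macrophage, lymphocyte, cardiac muscle or erythroid markers passed. By sign, all 6 cardiac markers were higher (median log2 fold change 0.30), all 5 erythroid markers lower (-0.55) and all 6 fibroblast markers lower (-0.16). The medians were 0.08 for smooth muscle, 0.32 for pericyte, 0.10 for endothelial, -0.05 for epithelial, 0.01 for neutrophil, 0.08 for monocyte and macrophage and -0.08 for lymphocyte markers. Cardiac markers summed to 141 to 193 CPM in LPS and 139 to 269 CPM in LPS + Tan, monocyte and macrophage markers to 472 to 746 and 645 to 805 CPM, neutrophil markers to 4129 to 5627 and 3757 to 5316 CPM, and fibroblast markers to 2659 to 3202 and 2409 to 2911 CPM. Smooth muscle markers summed to 169 to 296 CPM in LPS and 198 to 281 CPM in LPS + Tan, lymphocyte markers to 35.2 to 45.6 and 28.4 to 42.1 CPM, and erythroid markers to 1415 to 3427 and 1315 to 2133 CPM. Over all 68 markers 2 were higher and none was lower, against 2.87% and 2.25% of all genes. The higher count was 0 without LPS + Tan replicate 1, 4 without replicate 2, 1 without replicate 3 and 8 without replicate 4, and 1, 1 and 4 without LPS replicates 2, 3 and 4. The lower count was 3 and 2 without LPS + Tan replicates 2 and 4, and 4 and 1 without LPS replicates 2 and 3. All genes gave 1.69%, 5.15%, 1.84% and 4.78% higher without LPS + Tan replicates 1 to 4, as above, and the marker counts are to be read against these shares. The part of other cell types in the differences above was not tested.

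On the FPKM scale, which corrects for gene length, the mean over all 8 mice placed Ramp2 first at 271 FPKM, followed by Ace at 145, Klf2 at 136 and Ece1 at 119 FPKM. The ranges of these neighbours overlapped, although Ramp2 exceeded Ace in 8 of 8 mice. Edn1 followed at 49.2 FPKM, with a range of 17.9 to 81.5 FPKM that did not reach the 96.3 to 138 FPKM of Ece1. Ednra at 23.7, Adm at 21.9 and Klf4 at 16.0 FPKM overlapped in turn, and Agtr1a at 6.48 and Nos3 at 5.56 FPKM were lowest, with Agtr1a below Klf4 in 8 of 8 mice. The vasoconstrictor pathway thus showed its converting enzymes, Ace and Ece1, at higher levels than its receptors, Ednra and Agtr1a. The length behind the FPKM of Klf4 was 7553 bases, which is longer than the Klf4 gene in GENCODE M21, so that its place in the order and the size of its ratio to Klf2, though not the difference of that ratio between groups, depend on the gene model the authors used.

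**Figure D4:**
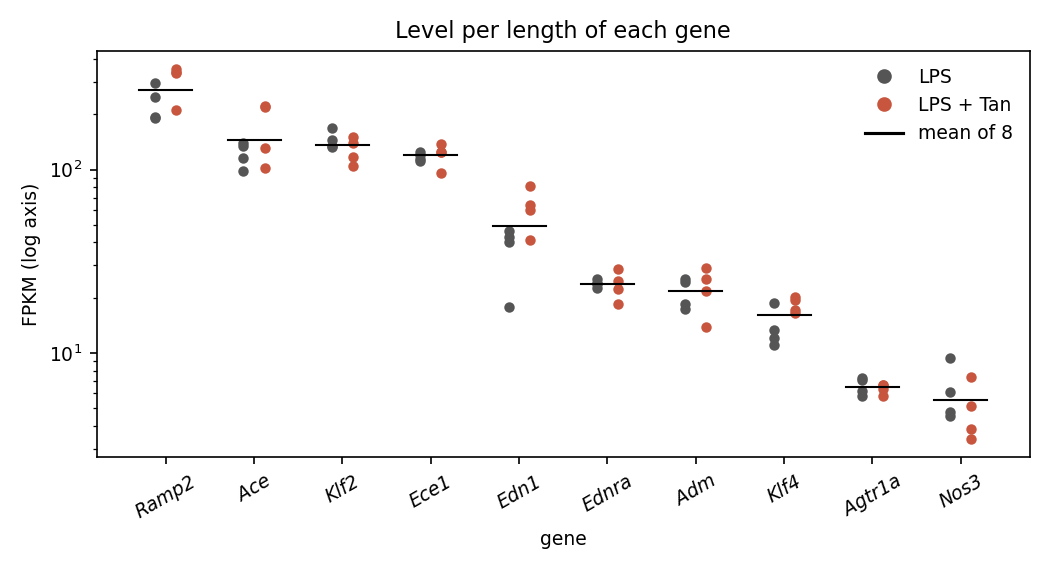
FPKM of each of the 10 genes on a log axis, in order of the mean over 8 mice (line), with 1 point per mouse in grey for LPS and red for LPS + Tan. Ramp2 has the highest mean at 271 FPKM and Nos3 the lowest at 5.56 FPKM.

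The LPS + Tan mice differed among themselves, which was noticed after the values were seen and is given without a test. Of the 10 genes, replicates 1 and 3 were the highest 2 of all 8 mice for Ace and the lowest 2 for Klf2, 1 of 10 each way, against 8.84% and 8.53% of all genes tested. The same mice were highest for 11 of 64 tested pathway genes, or 17.2%, among them Thbd, Tek, Cav1, Ednrb and Calcrl, and lowest for 7, or 10.9%, among them Nos2 and S1pr1. Among the 10 endothelial markers they were highest for Pecam1, Tie1 and Emcn and lowest for Cldn5 and Robo4. LPS + Tan replicate 2 lay within the LPS range for Ramp2, Thbd, Tek and Cav1 and below it for Calcrl, while it had the highest Edn1. With single mice left out, the count of the 10 genes that passed as higher was 0 without LPS + Tan replicate 1 and 1 without replicate 3 or 4. All genes gave 1.69%, 1.84% and 4.78% higher in these fits. The higher count was 1 without LPS replicate 1, 2 or 3 and 3 without LPS replicate 4. All genes there gave 3.10%, 2.22%, 1.98% and 2.91% higher. As lower, 1 passed without LPS + Tan replicate 2 (Nos3) or 4 (Klf2), where 5.06% and 4.56% of all genes passed as lower.

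**Figure D5:**
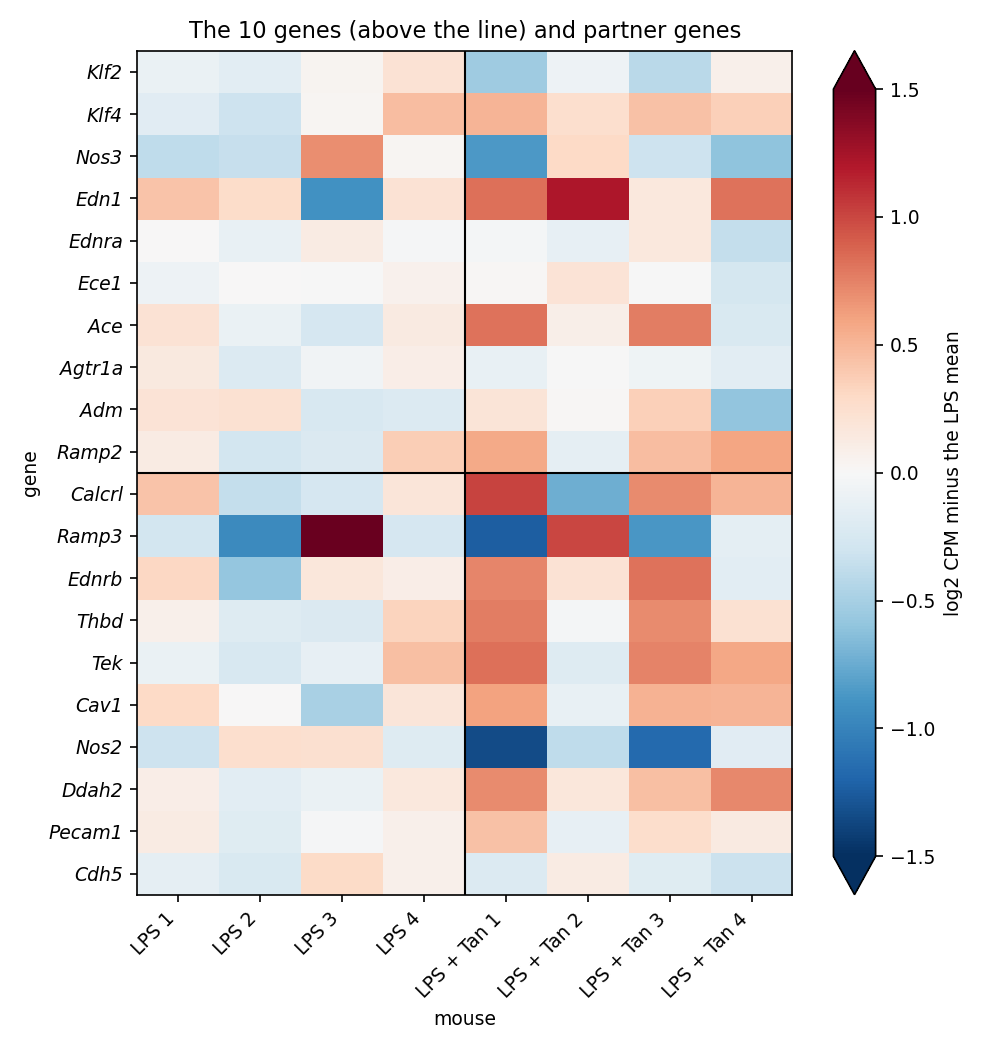
Log2 CPM of each gene in each mouse minus the mean of the LPS mice, with red above and blue below that mean and the 10 genes above the line. LPS + Tan replicates 1 and 3 are red for Ace, Calcrl, Thbd and Tek and blue for Klf2, Nos3 and Nos2, and LPS replicate 3 and LPS + Tan replicate 2 are red for Ramp3 and Nos3.

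The genes whose log2 CPM followed Edn1 most closely over the 8 mice, among 13735 genes with a mean CPM of at least 1, were Khdc4 (Pearson r = 0.96), Nradd (0.94) and Rph3al (0.94). Those nearest to Klf4 were Cldn15 (0.98), Zfp503 (0.97) and Kif11 (0.96). Cldn15, a claudin, shared with Klf4 the low values of LPS replicates 1 and 2, at 5.83 and 5.37 CPM, and the high value of LPS replicate 4, at 12.7 CPM, against 9.61 to 12.4 CPM in LPS + Tan. These correlations describe 8 mice of both groups and were selected as the highest of many.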

How the data were processed

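Lung RNA of 4 LPS and 4 LPS + Tan mice was analysed, with groups and replicate numbers from the labels. The authors deposited raw read counts per gene and FPKM values, which were found to equal counts over gene length and library total. GRCm38 (mm10) is the build in the submitters' processing notes. The aligner, the counter, the annotation and the use of strand are not given in the methods or labels read here, and the labels and the methods name different RNA and library kits. The deposited counts entered edgeR 4.0.16 under R 4.3.3 (filterByExpr, TMM, quasi-likelihood test, no covariate), which left 15706 genes, with Benjamini-Hochberg adjustment over all of them. Ratios of deposited FPKM were tested by exact two-sided permutation in scipy 1.17.1, adjusted over 3 ratios, 1 of which is not reported here. Alternatives were DESeq2 1.42.0, the likelihood ratio test, limma 3.58.1 (voom and log2 FPKM with 1 or 0.1 added), RLE, upper-quartile, total and endothelial scaling, other filters, a replicate block and each mouse left out. Alternatives for genes other than the 10, and counts at an adjusted p, were added after seeing the data.

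The genes and lists were chosen with earlier results of these data known. The text names the 10 genes, their direct partners, every listed pathway or marker gene with an unadjusted p below 0.05, Pecam1 and Cdh5, and the 3 genes most like each of the 10 that passed. Others (Atg9b, Vps25, Agtr1b, Edn2, Ren1, S1pr1, Tie1, Emcn, Cldn5, Robo4) were named after their values were seen. Of 144 list entries and the 10 genes, 152 were in the tables. Library totals were 38895654 to 39931970 counts.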

Additional observations from a re-analysis of the deposited data

Results flagged for a closer look

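Of 78 groups of 4 values examined, 3 held a mouse far from the other three by Dixon's criterion, where chance alone gives about 1 in 20 groups, or 3.9. Tek in LPS had its highest value in replicate 4, at 364 CPM against 249 CPM, a gap of 0.835 of the range. Ramp3 in LPS had its highest value in replicate 3, at 40.6 CPM against 12.3 CPM, a gap of 0.855 of the range. Cav1 in LPS + Tan had its lowest value in replicate 2, at 461 CPM against 706 CPM, a gap of 0.839 of the range.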

How the results depend on the processing

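Under 21 alternatives, the fold changes of the 10 genes gave 210 values, of which 178 kept their direction and their side of the unadjusted threshold, 9 lost the call, 8 gained one and 15 turned in sign, the last confined to Ednra, Ece1 and Adm. None of the 10 reached an adjusted p below 0.05 under any of them. Klf4 and Edn1 kept their calls under the 13 alternatives that retain all mice. Leaving out 1 mouse gave 0 to 3 of the 10 genes higher and 0 to 1 lower, 3 to 12 pathway genes higher and 0 to 2 lower, and 0 to 8 markers higher and 0 to 4 lower. Over all genes these fits called 1.69% to 5.15% higher and 1.33% to 5.06% lower. With scaling to endothelial markers, 1 of the 10 genes was lower, 4 pathway genes were higher and 3 lower, and 1 marker was higher and 3 lower. All genes gave 1.24% higher and 4.90% lower with that scaling. Pathway genes called higher were 3 with limma-voom, and 4 with log2(FPKM + 1) and with log2(FPKM + 0.1), against 2.67%, 4.10% and 4.07% of all genes. Markers called lower were 2 with DESeq2, 1 with the likelihood ratio test and 2 with no filter, against 2.08%, 2.32% and 2.31% of all genes.

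The labels give no pairing of the mice by replicate number. Deviations of same-numbered mice correlated at -0.14 to 0.12 and those of other pairs at -0.20 to 0.20. Such values over all genes cannot exclude a pairing that acts on some genes. With the replicate block, 5 pathway genes were called higher, with Edn3 (0.74) and Bdkrb1 (0.45) lost, and 2 were called lower. The marker Kdr was lost (0.36), and 3 of the 10 genes were higher, with Ramp2 added (0.37). All genes gave 2.53% higher and 2.73% lower with the block. The unadjusted edgeR p of Edn1 was 0.0298 without the block and 0.00052 with it. The Klf4 to Klf2 difference of 0.63 had an exact sign-flip p of 0.125, the smallest that 4 pairs allow. Without 1 mouse that difference was 0.49 to 0.74.

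Values near 0 turned in sign. Ece1 was 0.0034 with upper-quartile scaling, 0.0409 with total counts and 0.0296, 0.0297 and 0.0296 in the log2 FPKM fits. Adm was -0.0053 with limma-voom, -0.0728 with endothelial scaling and -0.0075 with the block. Agt was -0.0551 with endothelial scaling. Mapk7 was 0.0064 with total counts and 0.0035, 0.0037 and 0.0035 with log2 FPKM. Leaving out 1 mouse gave -0.17 to 0.005 for Ednra, -0.0797 to 0.0753 for Ece1, -0.11 to 0.18 for Adm, -0.996 to 0.41 for Ramp3 and -0.23 to 0.36 for Agt. Apart from alternatives with fewer samples or genes, the cause was not tested. Of the 8 genes that did not pass, the intervals of Nos3, Ace and Ramp2 reach changes of 1.5-fold or more.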
